A study of Mus musculus with 18 samples.

Results

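Nrarp and 9 other genes of the Notch pathway were followed in the nasal mucosa of mice. They were picked by gene symbol from a deposited count table of 54532 genes, and all 10 were found and passed the filter on low counts, as did 18291 genes in all. They are Nrarp, the receptors Notch1, Notch2, Notch3 and Notch4, the ligands Dll4 and Jag1, and the target factors Hes1, Hey1 and Heyl. Nrarp was picked because it is lower in CRS, the papain group, than in the control group CON of these same libraries, so its levels are a description and carry no p in any comparison. The fold changes of the other genes in the comparison that singled out Nrarp are given in the same way.

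Poly(A) RNA gave 18 sequenced libraries in 3 groups of 6. The C10 group received the compound C10, which the series title calls an inhibitor of APE1, an enzyme of DNA repair and redox control. It was dosed into both sides of the nose at 10 mg/mL and 10 µL per side, once a day for 10 days from the start of papain, and papain is assumed for these mice, since the text on dosing names CRS mice as the ones treated. The CRS group had 20 µg of papain, a plant protease, in 20 µL of buffered saline, given intranasally from day 0 to day 2 and again from day 7 to day 11, as a model of chronic rhinosinusitis. For the control group CON the labels name no treatment, and they give no strain, age, sex or vehicle dose, so C10 cannot be told apart from its added dosing. Whether the libraries are from separate animals is not stated, and the p-values measure only how these libraries spread, which may be technical.

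Totals were 15883573 to 18128186 counts in C10, 16531779 to 17523368 in CRS and 16510920 to 18433866 in CON. Markers of nasal tissue were high in every library: those of mature olfactory neurons summed to 2985 to 8860 CPM, the reads of a gene scaled to library size, and those of sustentacular cells to 7306 to 16285 CPM. Within the CRS group 3 libraries stood apart on the first principal component, which held 32.7% of the variance: the score was 64.6 for CRS 1, -80.9 for CRS 2 and -59.1 for CRS 5, and the other 15 libraries scored between -32.0 and 49.5. The log2 fold changes of the 10 genes in comparisons that use CRS are therefore also given without CRS 1, without CRS 2 and CRS 5, and without all 3.

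Notch receptors sit in the cell membrane and are switched on by ligands on a neighbouring cell. Cleavage then frees the inner part of the receptor, which enters the nucleus and, with the DNA-binding protein Rbpj, turns on genes such as those of the Hes and Hey families. Nrarp is itself such a target, and its small ankyrin-repeat protein binds the receptor fragment and lowers its activity, so it acts as a feedback inhibitor; in growing vessels of the mouse it is known to limit Notch signalling and to favour Wnt signalling. In the olfactory lining, Notch signalling is known to take part in the choice between neuronal and supporting cell fates.

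Nrarp stood lowest in the CRS libraries. Its levels in CPM were 6.16, 8.08, 6.23, 7.13, 8.62 and 10.8 in C10 1 to 6, then 4.42, 3.28, 5.48, 3.60, 4.65 and 3.98 in CRS 1 to 6, and 9.26, 7.87, 5.43, 7.86, 6.06 and 8.68 in CON 1 to 6. Every C10 library lay above every CRS library, and the CRS and CON groups met only where CRS 3 lay just above CON 3. The mean was 7.84 ± 1.75 CPM in C10, 4.23 ± 0.793 CPM in CRS and 7.53 ± 1.49 CPM in CON (SD, n = 6 each). As fitted with edgeR, the log2 fold change was 0.89 ± 0.17 (SE) in C10 against CRS, which is 1.85-fold, 0.06 ± 0.17 in C10 against CON, and -0.83 ± 0.17 in CRS against CON, which is 0.563-fold. The first and the last of these share the CRS libraries and so are not separate evidence of a low CRS level.

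With each library left out in turn, the log2 fold change ran from 0.76 to 0.96 in C10 against CRS and from -0.92 to -0.76 in CRS against CON. Without CRS 1 it was 0.90 ± 0.19 in C10 against CRS and -0.84 ± 0.19 in CRS against CON, without CRS 2 and CRS 5 it was 0.82 ± 0.20 and -0.78 ± 0.20, and without all 3 it was 0.82 ± 0.23 and -0.78 ± 0.22. Since the gene was chosen for this low level, these values describe it and are no support for it. The counts behind these levels were modest, with 100 to 169 reads in a C10 library, 53 to 85 in a CRS library and 100 to 163 in a CON library. Counting error alone would give a coefficient of variation of 8.71% in C10, 11.9% in CRS and 8.65% in CON, and the libraries varied by 22.3% in C10, 18.7% in CRS and 19.8% in CON. For the lowest library, CRS 2, the exact 95% Poisson interval was 2.46 to 4.29 CPM, which covers counting error only.

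**Figure D1:**
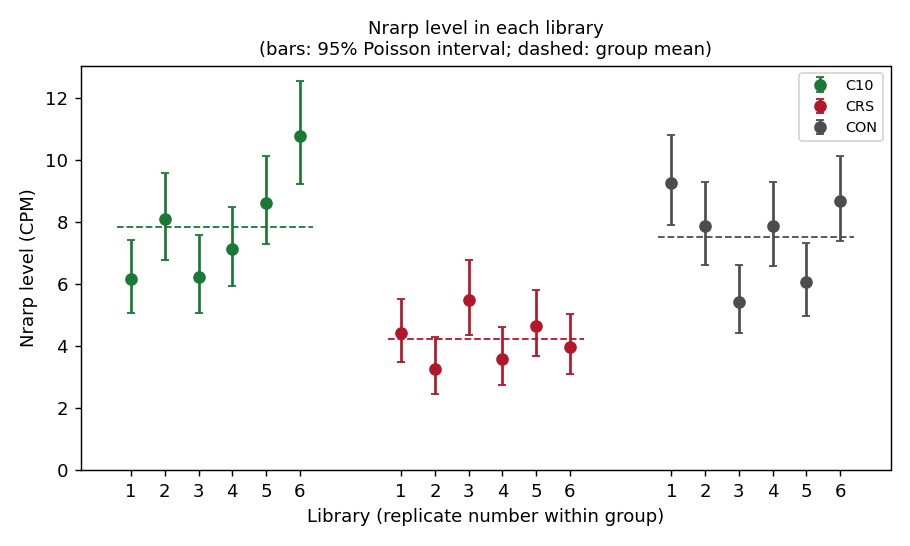
Nrarp level in each of the 18 libraries, in CPM, with the 95% Poisson interval of its count as a bar and the group mean as a dashed line. The 6 CRS libraries sit between 3.28 and 5.48 CPM, below all 6 C10 libraries (6.16 to 10.8 CPM), and CRS 3 alone lies above the lowest CON library (5.43 CPM).

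Nrarp (ENSMUSG00000078202) lies on chromosome 2 of mm10 from 25180758 to 25183339, on the plus strand. GENCODE M21 gives it 1 transcript of 1 exon, 2582 bases long, with the coding part from 25181111 to 25181452, a small part of that exon. An antisense gene model, Gm38287, overlaps it and had 0 counts over all 18 libraries. The promoter window is shown because this gene has the largest change of the 10; RefSeq places it at chr2:25180508-25180807 of GRCm38.p6, the assembly called mm10, on the plus strand, and it covers 250 bases before and 50 after the start of the gene. Capitals mark an E-box of the letters CACGTG from base 143, the kind of site that Hes and Hey proteins can bind, and a pair of GC boxes (GGGCGG, here as CCGCCC) from bases 131 and 136 that share their end base.
Nrarp: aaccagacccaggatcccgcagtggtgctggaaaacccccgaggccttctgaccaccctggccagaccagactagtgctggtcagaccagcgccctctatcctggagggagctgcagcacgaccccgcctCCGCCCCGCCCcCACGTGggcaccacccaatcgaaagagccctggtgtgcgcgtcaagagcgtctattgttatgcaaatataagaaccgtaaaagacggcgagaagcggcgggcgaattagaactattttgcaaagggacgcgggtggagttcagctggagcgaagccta
The core letters of the Rbpj site, TGGGAA, are not in this window on either strand. Over 32851 mouse promoter windows of the same length, counting both strands, CACGTG is in 7.15%, TGGGAA in 25.6% and GGGCGG in 35.7%. A match is a string of letters and does not show binding.

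The receptor genes had lower mean levels in CRS than in CON for all 4 genes, but the groups overlapped in each of them, and the highest CRS value of all 4 came from CRS 1. Notch1, which acts in epithelium, neural precursors and endothelium, had 52.0, 67.5 and 84.0 CPM as its lowest, median and highest level in C10, 29.1, 48.3 and 93.9 CPM in CRS, and 59.5, 75.2 and 82.2 CPM in CON. The files place it (ENSMUSG00000026923) on chromosome 2 from 26457903 to 26516663, on the minus strand. Its means were 67.4 ± 13.1 CPM in C10, 53.0 ± 22.1 CPM in CRS and 74.0 ± 8.02 CPM in CON (SD, n = 6 each), and 5 of 6 CRS libraries lay below every CON library. All 6 C10 libraries lay above the CRS median, but the log2 fold change in C10 against CRS, 0.35 ± 0.20, did not pass (edgeR adjusted p = 0.488). In C10 against CON it was -0.13 ± 0.20 (edgeR adjusted p = 0.813), and in CRS against CON it was -0.48 ± 0.20.

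Notch3, known for its role in the smooth muscle and pericytes of vessels, had the tightest CON group of the 10 genes. The CON libraries lay between 95.3 and 105 CPM with a median of 100.3 CPM, while C10 ran from 61.1 to 114 CPM (median 91.0) and CRS from 47.1 to 102 CPM (median 74.6). Notch3 (ENSMUSG00000038146) lies on chromosome 17 from 32120820 to 32166880, on the minus strand. Only CRS 1 of the CRS group reached the range of CON. The log2 fold change was 0.28 ± 0.15 in C10 against CRS (edgeR adjusted p = 0.437), -0.16 ± 0.15 in C10 against CON (edgeR adjusted p = 0.682) and -0.43 ± 0.15 in CRS against CON.

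Notch2, a widely used receptor, was the receptor with the highest level per length. Its lowest, median and highest levels were 78.4, 142 and 179 CPM in C10, 95.6, 109 and 196 CPM in CRS, and 124, 153 and 174 CPM in CON. The C10 libraries spread the most, with C10 5 (87.9 CPM) and C10 6 (78.4 CPM) below every CRS and CON library. The log2 fold change was 0.13 ± 0.20 in C10 against CRS (edgeR adjusted p = 0.850) and -0.20 ± 0.20 in C10 against CON (edgeR adjusted p = 0.704), and in CRS against CON it was -0.33 ± 0.20.

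Notch4, a receptor found mainly in endothelium, was the least abundant of the 10 genes per length. It had 5.38, 6.46 and 10.9 CPM as lowest, median and highest level in C10, 5.69, 7.75 and 12.4 CPM in CRS, and 7.61, 9.32 and 13.6 CPM in CON. Of the 6 C10 libraries 5 lay below the CON median, and the log2 fold change in C10 against CON was -0.52 ± 0.21 (edgeR adjusted p = 0.304). In C10 against CRS it was -0.23 ± 0.21 (edgeR adjusted p = 0.691), and in CRS against CON it was -0.28 ± 0.21.

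The receptor values in comparisons with CRS depended on which CRS libraries were kept. Without CRS 1, the 5 CRS libraries left lay at 29.1 to 56.1 CPM for Notch1, 95.6 to 121.6 CPM for Notch2 and 47.1 to 81.0 CPM for Notch3, each below all 6 CON libraries. Groups apart in this way, lower in CRS, were found for 3.39% of the genes tested, and this count was made after the values had been seen. The log2 fold change of CRS against CON without CRS 1 was -0.73 ± 0.15 for Notch1, -0.52 ± 0.18 for Notch2, -0.55 ± 0.14 for Notch3 and -0.43 ± 0.20 for Notch4. Without CRS 2 and CRS 5 they were -0.40 ± 0.23 for Notch1, -0.20 ± 0.23 for Notch2, -0.41 ± 0.17 for Notch3 and -0.12 ± 0.22 for Notch4, and without all 3 they were -0.76 ± 0.19, -0.45 ± 0.22, -0.60 ± 0.16 and -0.29 ± 0.24. In C10 against CRS the values of Notch1 were 0.59 ± 0.15 without CRS 1 (edgeR adjusted p = 0.0893), 0.26 ± 0.23 without CRS 2 and CRS 5 and 0.62 ± 0.19 without all 3. Over all alternatives the adjusted p of Notch1 there ran from 0.0425, with limma-voom, to 0.744, by the tool used in each. Those of Notch2 were 0.32 ± 0.18, -0.0055 ± 0.23 and 0.24 ± 0.22 under the same omissions, those of Notch3 0.39 ± 0.14, 0.25 ± 0.17 and 0.43 ± 0.16, and those of Notch4 -0.08 ± 0.20, -0.40 ± 0.22 and -0.23 ± 0.23.

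The receptors varied together from library to library. As deviations from the group means over 18 libraries, log2 CPM of Notch1 had a Pearson r of 0.84 with Notch3 and 0.83 with Notch2, and that of Notch2 had 0.71 with Notch3; the libraries share their depth and tissue make-up, so these are descriptions. The promoter windows of Notch1 and Notch3 are shown because these receptors moved together most closely. RefSeq places them at chr2:26503773-26504072 and chr17:32166841-32167140, both on the minus strand of GRCm38.p6, and that of Notch1 lies inside the gene span in the files. Capitals mark GC boxes, GGGCGG or CCGCCC on the strand shown, of which Notch1 has 5 and Notch3 has 4.
Notch1: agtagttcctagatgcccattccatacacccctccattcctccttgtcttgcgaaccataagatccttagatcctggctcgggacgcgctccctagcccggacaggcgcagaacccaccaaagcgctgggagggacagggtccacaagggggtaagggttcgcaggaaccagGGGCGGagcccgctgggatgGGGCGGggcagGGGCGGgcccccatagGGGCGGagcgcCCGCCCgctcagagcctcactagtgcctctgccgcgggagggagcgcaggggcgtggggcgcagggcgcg
Notch3: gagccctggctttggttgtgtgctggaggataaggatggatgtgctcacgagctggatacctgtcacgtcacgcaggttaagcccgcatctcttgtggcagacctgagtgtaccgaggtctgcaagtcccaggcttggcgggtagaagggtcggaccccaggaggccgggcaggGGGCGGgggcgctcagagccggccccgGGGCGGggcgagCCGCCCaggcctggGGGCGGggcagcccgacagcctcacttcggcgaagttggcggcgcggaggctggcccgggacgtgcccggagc
Neither window holds CACGTG or TGGGAA. The G and C content is 68.3% for Notch1 and 70.0% for Notch3, against 60.0% for Nrarp. A RefSeq window was found for 7 of the 10 genes, of which 5 hold a GC box (Nrarp, Notch1, Notch2, Notch3 and Dll4), 3 hold the Hes-type site CACGCG (Notch2, Dll4 and Jag1; 9.27% of all windows), 1 holds CACGTG (Nrarp) and 0 hold TGGGAA.

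**Figure D2:**
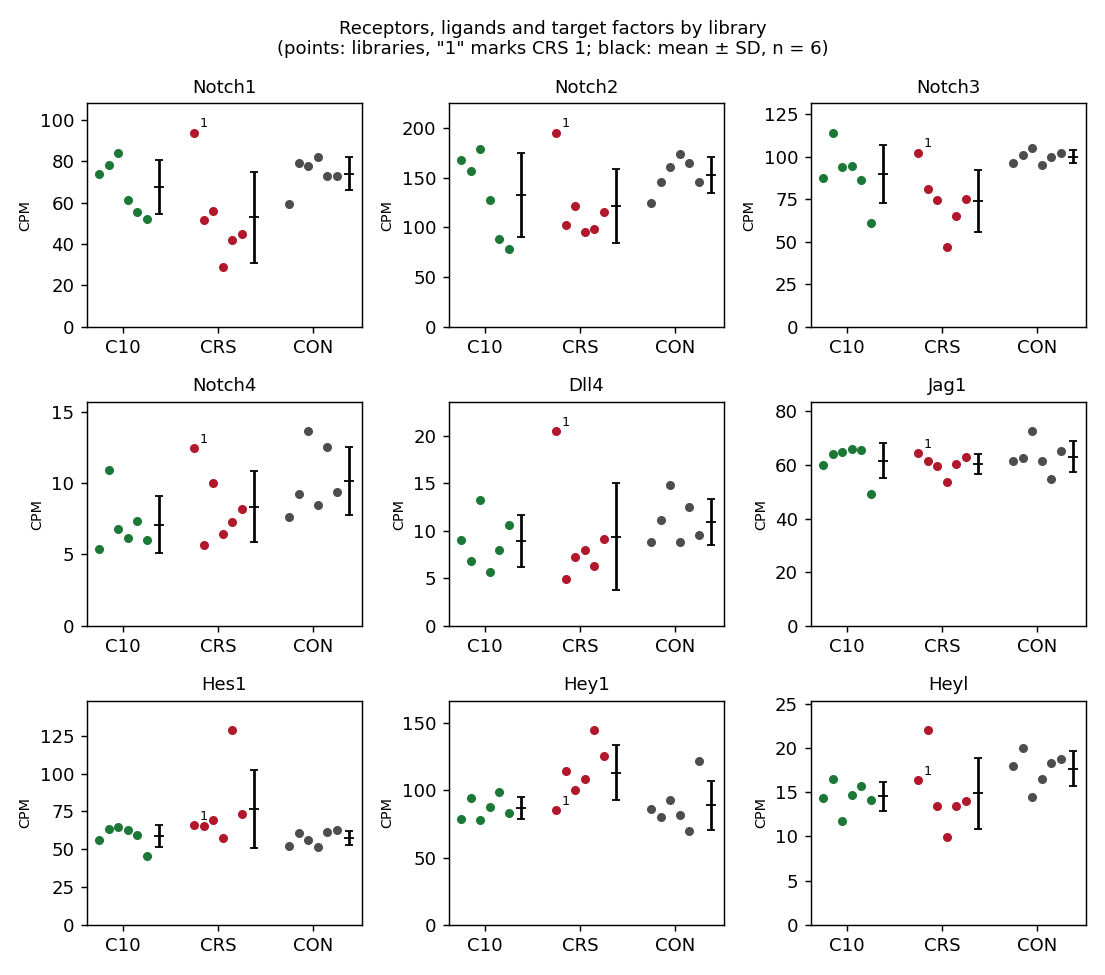
Levels of the other 9 genes in CPM, with 1 point for each library in the order 1 to 6 within C10, CRS and CON, and the mean ± SD in black (n = 6 each). The point marked 1 is CRS 1, which is the highest CRS library for the 4 receptors and for Dll4 (20.5 CPM), while CRS 5 is the highest for Hes1 (129 CPM).

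Neither ligand passed the test in a comparison with C10. Jag1, a ligand of many epithelia and of vessel walls, had the smallest error of the 10 genes, with means of 61.7 ± 6.41 CPM in C10, 60.4 ± 3.70 CPM in CRS and 63.1 ± 5.82 CPM in CON (SD, n = 6 each). Its log2 fold change was 0.03 ± 0.08 in C10 against CRS (edgeR adjusted p = 0.917), -0.03 ± 0.08 in C10 against CON (edgeR adjusted p = 0.889) and -0.06 ± 0.08 in CRS against CON. In the first and last of these it was 0.05 ± 0.08 and -0.08 ± 0.08 without CRS 1, 0.02 ± 0.09 and -0.06 ± 0.09 without CRS 2 and CRS 5, and 0.05 ± 0.10 and -0.09 ± 0.10 without all 3. Dll4, the ligand of arterial and sprouting endothelium, had 5.63, 8.53 and 13.2 CPM as lowest, median and highest level in C10, 4.95, 7.64 and 20.5 CPM in CRS, and 8.80, 10.3 and 14.9 CPM in CON. The highest value of the CRS group, in CRS 1, was far above the next CRS value of 9.18 CPM. The log2 fold change was -0.08 ± 0.29 in C10 against CRS (edgeR adjusted p = 0.942), -0.30 ± 0.29 in C10 against CON (edgeR adjusted p = 0.687) and -0.22 ± 0.29 in CRS against CON. Without CRS 1 it was 0.31 ± 0.22 in C10 against CRS (edgeR adjusted p = 0.489, the lowest over the alternatives, which ran to 0.998 by the tool used in each) and -0.62 ± 0.22 in CRS against CON. Without CRS 2 and CRS 5 it was -0.35 ± 0.28 and 0.04 ± 0.28, and without all 3 it was 0.10 ± 0.24 and -0.41 ± 0.24, so its direction changed with the CRS libraries kept.

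Hes1 and Hey1 stood on the other side from Nrarp, with higher means in CRS than in C10 or CON. Hes1 is a repressor that holds precursor cells back from neuronal fates, and it had 45.5, 60.9 and 64.5 CPM as lowest, median and highest level in C10, 57.2, 67.5 and 129 CPM in CRS, and 51.5, 58.5 and 62.4 CPM in CON. All 6 C10 libraries lay below the CRS median, but the groups overlapped, and the log2 fold change of -0.39 ± 0.15 in C10 against CRS did not pass (edgeR adjusted p = 0.278). It was 0.03 ± 0.15 in C10 against CON (edgeR adjusted p = 0.954) and 0.42 ± 0.15 in CRS against CON. The highest level was in CRS 5. Over all alternatives the adjusted p of Hes1 in C10 against CRS ran from 0.136 to 0.416, by the tool used in each. Without CRS 2 and CRS 5 its log2 fold change was -0.20 ± 0.10 in C10 against CRS (edgeR adjusted p = 0.310) and 0.22 ± 0.10 in CRS against CON. It was -0.43 ± 0.16 and 0.46 ± 0.16 without CRS 1, and -0.21 ± 0.11 and 0.23 ± 0.11 without all 3.

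Hey1, a repressor of the related Hey family with known roles in vessels and heart, had 78.3, 85.4 and 98.8 CPM as lowest, median and highest level in C10, 85.5, 111 and 145 CPM in CRS, and 70.0, 84.0 and 122 CPM in CON. All 6 C10 libraries lay below the CRS median and 5 of 6 CRS libraries lay above every C10 library, the exception being CRS 1. The log2 fold change in C10 against CRS was -0.38 ± 0.13, which did not pass (edgeR adjusted p = 0.206); over the alternatives it ran from -0.45 to -0.29, with adjusted p from 0.0425 to 0.350 by the tool used in each. It was -0.03 ± 0.13 in C10 against CON (edgeR adjusted p = 0.934) and 0.35 ± 0.13 in CRS against CON. For C10 against CRS and CRS against CON it was -0.45 ± 0.12 and 0.42 ± 0.12 without CRS 1, -0.29 ± 0.13 and 0.25 ± 0.14 without CRS 2 and CRS 5, and -0.38 ± 0.14 and 0.34 ± 0.14 without all 3. Hes1 (ENSMUSG00000022528) lies on chromosome 16 from 30064384 to 30067796 on the plus strand, and Hey1 (ENSMUSG00000040289) on chromosome 3 from 8663359 to 8667256 on the minus strand. Heyl, a Hey factor of smooth muscle, had means of 14.5 ± 1.63 CPM in C10, 14.9 ± 4.06 CPM in CRS and 17.7 ± 1.95 CPM in CON (SD, n = 6 each). All 6 C10 libraries lay below the CON median, with a log2 fold change of -0.28 ± 0.15 in C10 against CON (edgeR adjusted p = 0.421); it was -0.03 ± 0.15 in C10 against CRS (edgeR adjusted p = 0.955) and -0.25 ± 0.15 in CRS against CON. These last values of Heyl were -0.0031 ± 0.15 and -0.28 ± 0.15 without CRS 1, 0.10 ± 0.13 and -0.39 ± 0.13 without CRS 2 and CRS 5, and 0.20 ± 0.14 and -0.49 ± 0.14 without all 3.

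Nrarp was left out of the counts of calls, since it was chosen on these libraries; this way of counting was settled after the values had been seen. Of the other 9 genes, edgeR called 0 in C10 against CRS at an adjusted p under 0.05, where it called 0.082% of all genes tested. At an unadjusted p under 0.05 there were 0 above 0 and 2 below 0, Hes1 and Hey1, against 5.77% of all genes above 0 and 7.41% below 0. DESeq2 called 0 of the 9, against 1.91% of all genes, and limma-voom 2, Hey1 and Notch1, against 3% of all genes. In C10 against CON edgeR called 0 of the 9, against 0.159% of all genes; Notch4, below 0, had an unadjusted p under 0.05 (6.29% of all genes above 0 and 6.83% below 0). DESeq2 called 0 there, against 1.74% of all genes, and limma-voom 0, against 1.38%.

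In CRS against CON, the comparison that chose Nrarp, edgeR called 0 of the 9, against 0.00547% of all genes. At an unadjusted p under 0.05 there were 2 above 0 (Hes1 and Hey1) and 2 below 0 (Notch1 and Notch3), against 7.75% and 6.3% of all genes. DESeq2 called 0, against 0.979% of all genes, and limma-voom 3 (Hey1, Notch1 and Notch3), against 5.14%. Without CRS 1 edgeR called 2 of the 9, Notch1 and Notch3, against 5.39% of 18452 genes tested. Nothing is read from the counts of this comparison, and the 3 comparisons share libraries in pairs, so they are not independent of each other.

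**Figure D3:**
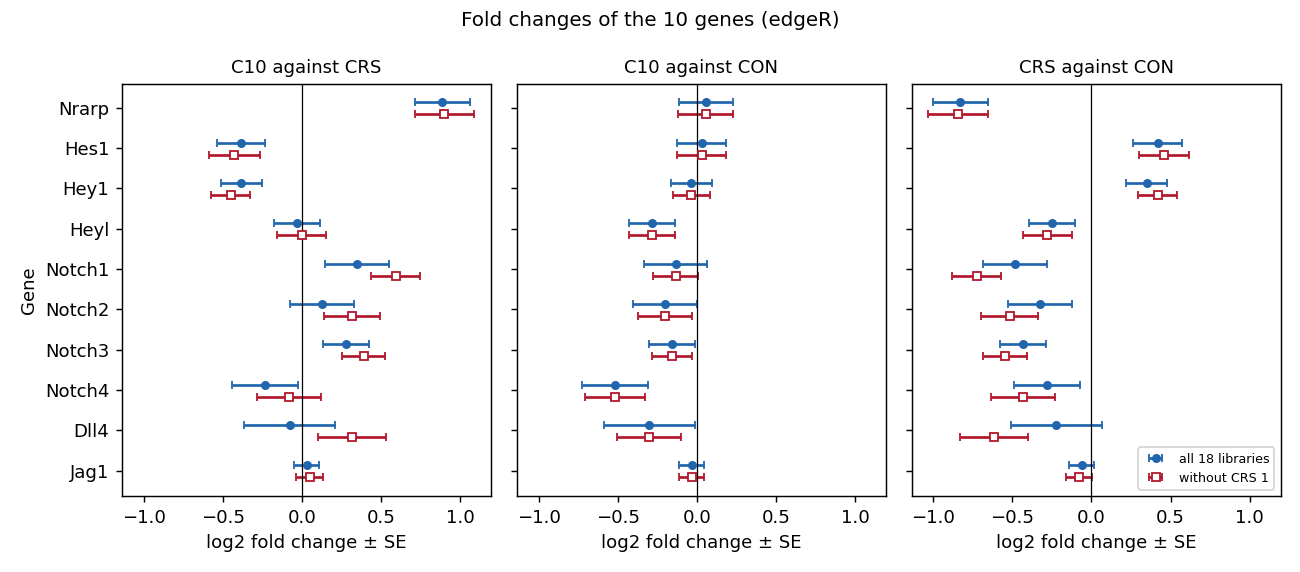
Log2 fold change ± SE (edgeR) of the 10 genes in C10 against CRS, C10 against CON and CRS against CON, from all 18 libraries (filled circles) and without CRS 1 (open squares). Nrarp lies at 0.89 in C10 against CRS and at -0.83 in CRS against CON, Hes1 and Hey1 lie on the opposite side of 0 from Nrarp in both, and Notch1 and Dll4 shift the most when CRS 1 is left out.

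Levels can be set between genes only per length, as FPKM, which divides by gene length and library size. In the C10 libraries the order of mean levels was Hes1 (28.4 FPKM), Hey1 (26.2), Notch2 (12.2), Notch3 (11.0), Jag1 (10.4), Notch1 (4.68), Nrarp (2.99), Heyl (2.81), Dll4 (2.28) and Notch4 (0.868). The order in CON was the same except that Heyl (3.43 FPKM) stood above Nrarp (2.89 FPKM). In CRS, Nrarp (1.63 FPKM) stood at the ninth place, below Dll4 (2.42 FPKM), and Jag1 (10.3 FPKM) stood above Notch3 (9.16 FPKM). Ranges of neighbours overlapped except between Hey1 and Notch2 in every group, between Jag1 and Notch1 and between Dll4 and Notch4 in C10 and CON, and between Notch1 and Heyl in CON.

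The pathway holds many more genes, and lists of 66 of them by role, the 10 included, gave 61 that were tested; Dll3, Dlk1, Cntn6, Hes2 and Hes3 had too few counts. Of the 60 other than Nrarp, edgeR called 0 in each of the 3 comparisons. Of all genes it called 0.082% in C10 against CRS, 0.159% in C10 against CON and 0.00547% in CRS against CON. At an unadjusted p under 0.05 there were 6 above 0 and 4 below 0 in C10 against CRS, against 5.77% and 7.41% of all genes. There were 5 and 4 in C10 against CON (6.29% and 6.83%), and 5 and 11 in CRS against CON (7.75% and 6.3%). In C10 against CRS, DESeq2 called 1, Aph1c, against 1.91% of all genes, and limma-voom 5, against 3%. In C10 against CON, DESeq2 called 0 and limma-voom 1, Mfng, against 1.74% and 1.38% of all genes. In CRS against CON, DESeq2 called 1, Aph1c, and limma-voom 10, against 0.979% and 5.14% of all genes. Without CRS 1 edgeR called 8 of the 60 in CRS against CON, against 5.39% of all genes, 0 in C10 against CRS (0.157%) and 0 in C10 against CON (0.596%). The median log2 fold change of the 60 was 0.07 in C10 against CRS, -0.03 in C10 against CON and -0.08 in CRS against CON, beside 0.008, 0.012 and 0.004 over all genes tested.

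By role, the nuclear complex, with Rbpj, the Mastermind coactivators and the corepressors, had 12 of 14 genes above 0 in C10 against CRS (median 0.08) and 11 of 14 below 0 in CRS against CON (median -0.11). Of all 18291 genes tested, 9457 lay above 0 in C10 against CRS, 9622 in C10 against CON and 9290 in CRS against CON. Ctbp2, a corepressor of the nuclear complex, had means of 40.2 ± 5.22 CPM in CRS and 52.0 ± 2.87 CPM in CON, a log2 fold change of -0.37 ± 0.11. In C10 against CRS it was 0.24 ± 0.11 (edgeR adjusted p = 0.350). Numbl, an adaptor related to the Notch inhibitor Numb, averaged 19.2 ± 1.85 CPM in C10 and 15.5 ± 2.56 CPM in CRS (SD, n = 6 each), a log2 fold change of 0.31 ± 0.10 (edgeR adjusted p = 0.205). The genes for ubiquitin transfer and endocytosis, the list of Numbl, had 8 of 13 above 0 in that comparison (median 0.06). Among the 4 ligands tested, Dll1 had means of 10.1 ± 1.45 CPM in CRS and 7.57 ± 1.10 CPM in CON, a log2 fold change of 0.41 ± 0.12.

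Of the proteases, which cut the receptor, 6 of 10 lay below 0 in C10 against CRS. Aph1c, a subunit of gamma-secretase, averaged 18.4 ± 2.38 CPM in C10 and 26.1 ± 3.37 CPM in CRS. The log2 fold change was -0.51 ± 0.11 in C10 against CRS (edgeR adjusted p = 0.0752) and 0.46 ± 0.11 in CRS against CON. Its sequence is close to that of Aph1b, so its counts are uncertain. The Notch glycosyltransferases, which tune ligand choice, had 4 of 5 above 0 in C10 against CRS and 2 of 5 above 0 in C10 against CON. Mfng averaged 12.6 ± 1.44 CPM in C10 and 9.27 ± 1.35 CPM in CON, a log2 fold change of 0.44 ± 0.16 (edgeR adjusted p = 0.261), whereas Pofut1 averaged 40.7 ± 5.96 CPM in C10 and 47.6 ± 3.88 CPM in CON, a log2 fold change of -0.23 ± 0.10 (edgeR adjusted p = 0.347). Hes6, a Hes factor that favours neuronal differentiation, averaged 44.3 ± 7.12 CPM in C10 and 35.4 ± 2.60 CPM in CON, a log2 fold change of 0.32 ± 0.11 (edgeR adjusted p = 0.236).

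Several of these genes are used in vessels, and the mean marker levels of vessel cells, fibroblasts and macrophages were lower in C10 and CRS than in CON. In bulk tissue, fewer cells of a type and less RNA per cell cannot be told apart. The 12 endothelial markers, none of them at 0 in any library, summed to 292 to 437 CPM in C10, 302 to 611 CPM in CRS and 422 to 643 CPM in CON, and their mean log2 CPM was 4.68 ± 0.22 in C10, 4.76 ± 0.41 in CRS and 5.18 ± 0.23 in CON (SD, n = 6 each). Below 0 were 9 of 12 in C10 against CRS (median log2 fold change -0.16), 12 of 12 in C10 against CON (-0.51) and 11 of 12 in CRS against CON (-0.44). CRS 1 had the highest endothelial level of the CRS group, 5.46. It also had the highest levels of all 4 receptors and of Dll4 in that group. Its mean log2 CPM was likewise the highest for mural cells (6.49), fibroblasts (8.82), macrophages (6.35), arterial endothelium, basal epithelium and Schwann cells. It was the lowest CRS library for mature olfactory neurons (7.95), olfactory precursors (2.15), sustentacular cells (8.72) and nasal glands (11.6). The CRS mean of the endothelial level was 4.62 ± 0.26 without CRS 1 (n = 5) and 4.95 ± 0.37 without CRS 2 and CRS 5 (n = 4). The 8 mural cell markers had a mean log2 CPM of 5.81 in C10, 5.84 in CRS and 6.33 in CON. The 7 fibroblast markers had a mean log2 CPM of 7.70 ± 0.43 in C10, 7.80 ± 0.70 in CRS and 8.46 ± 0.49 in CON, and summed to 2033 to 4549 CPM in C10, 2031 to 7118 CPM in CRS and 3222 to 10702 CPM in CON. They had 7 of 7 below 0 in C10 against CON (median log2 fold change -0.92) and 7 of 7 in CRS against CON (-0.61), with 6 of 7 in C10 against CRS (-0.25). The 7 macrophage markers had a mean log2 CPM of 4.98 ± 0.45 in C10, 5.22 ± 0.81 in CRS and 5.85 ± 0.47 in CON, and summed to 258 to 548 CPM in C10, 173 to 974 CPM in CRS and 391 to 967 CPM in CON. They had 7 of 7 below 0 in C10 against CON (-0.76) and 7 of 7 in CRS against CON (-0.41), with 6 of 7 in C10 against CRS (-0.55).

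With the endothelial level added to the edgeR fit, the log2 fold change of Nrarp was 0.87 ± 0.18 in C10 against CRS and -0.89 ± 0.20 in CRS against CON. For the receptors and Dll4 in CRS against CON, that fit gave values nearer to 0 for Notch1 and Notch3 and of the opposite sign for the others: -0.20 ± 0.18 for Notch1, 0.01 ± 0.17 for Notch2, -0.29 ± 0.16 for Notch3, 0.09 ± 0.17 for Notch4 and 0.20 ± 0.22 for Dll4. Hey1 was 0.12 ± 0.12 in CRS against CON and -0.41 ± 0.10 in C10 against CRS (edgeR adjusted p = 0.0529). Olfactory precursor markers, whose cells also use Notch signalling, averaged 3.72 ± 0.43 log2 CPM in C10, 2.86 ± 0.68 in CRS and 2.41 ± 0.31 in CON, with 6 of 6 above 0 in each comparison. The median log2 fold change was 0.80 in C10 against CRS, 1.36 in C10 against CON and 0.57 in CRS against CON. In C10 against CON edgeR called 1 of the 6 higher, against 0.159% of all genes in either direction. Without CRS 2 and CRS 5 the CRS mean of these markers was 2.45 ± 0.31 (n = 4). The endothelial level itself had a lower mean in C10 and CRS than in CON, as had the mural cell, fibroblast and macrophage levels. The endothelial fit therefore cannot tell endothelium apart from those cells or from the group difference, and no other list was used as a covariate. Beyond the Nrarp relations below, the part of these marker lists in the levels of these 10 genes was not tested.

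**Figure D4:**
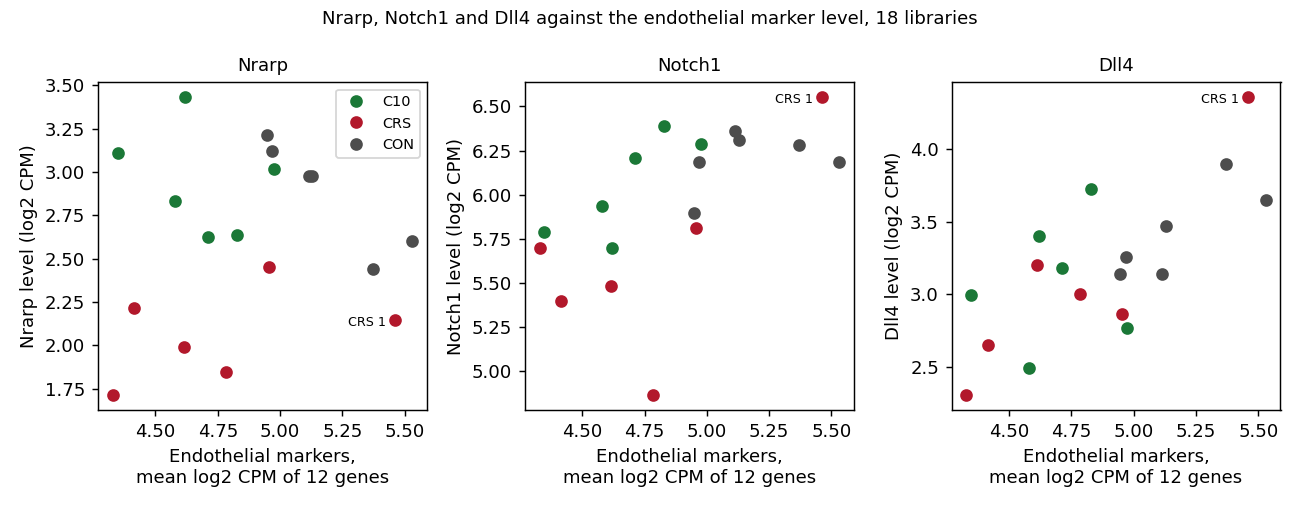
Log2 CPM of Nrarp, Notch1 and Dll4 against the mean log2 CPM of 12 endothelial markers in the 18 libraries, coloured by group. CRS 1, at an endothelial level of 5.46, has the highest Notch1 and Dll4 of all libraries, while its Nrarp, 4.42 CPM, lies below every C10 and CON library.

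Within the groups, no relation of Nrarp with the other genes or cell markers passed after adjustment. Relations of its log2 CPM, as deviations from the group means over 18 libraries, were computed with the other 9 genes and 13 marker lists, 22 in all, each with a two-sided permutation test of 100000 resamples within groups. Pearson r with the 9 genes ran from -0.41 for Notch2 (Spearman rho -0.46; permutation p = 0.118, adjusted p = 0.616) to 0.18 for Hey1 (rho 0.12; permutation p = 0.489, adjusted p = 0.785). With the endothelial level r was -0.15 (rho -0.24; permutation p = 0.571, adjusted p = 0.785). The smallest p was that of the ciliated cell level, with r of -0.53 (rho -0.57; permutation p = 0.0376, adjusted p = 0.616), and without the 2 libraries farthest from its median r was -0.61. Without CRS 1, CRS 2 and CRS 5, over 15 libraries, several were larger. The r was 0.66 for olfactory precursors (0.31 with all libraries), 0.65 for sustentacular cells (0.40), 0.64 for nasal glands (0.46) and 0.60 for mature olfactory neurons (0.36). It was 0.52 for Schwann cells (0.29) and for Heyl (0.11). Below 0, r was -0.62 for fibroblasts (-0.32), -0.59 for ciliated cells (-0.53), -0.59 for Notch2 (-0.41) and -0.44 for the endothelial level. None passed in that set either, with a smallest adjusted permutation p of 0.0976 for Pearson's r and 0.0951 for Spearman's rho.

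The 6 genes whose within-group deviations were most like those of Nrarp, of 14973 genes that averaged 1 CPM or more, were Ccndbp1 (Pearson r 0.72 over 18 libraries), Jpx (0.70), Asb16 (0.70), Pqbp1 (0.69), Gstp3 (0.69) and Rtl8b (0.68). As the highest of 14973 values over 18 libraries, these r were not tested, and values this large can arise by chance. With the group differences kept in, r was lower, 0.18 for Ccndbp1, 0.04 for Jpx, 0.19 for Asb16, 0.29 for Pqbp1, 0.21 for Gstp3 and -0.06 for Rtl8b. Ccndbp1, the closest, had a mean log2 CPM of 5.53 ± 0.09 in C10, 5.50 ± 0.11 in CRS and 5.39 ± 0.08 in CON (SD, n = 6 each).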

How the data were processed

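RNA-seq of nasal mucosa was analysed in 18 libraries (6 per group). The authors deposited raw read counts per gene, used for all tests, and FPKM values, used for levels between genes and as an alternative. Per the submitters' processing notes the build is mm10; for aligner, counter and annotation nothing is given in the sources used here. The kit is not stated to keep strand, so overlapping genes cannot be separated: Notch1 (20021 counts in all) overlaps 0610009E02Rik (373), Notch3 (27197) Gm17276 (106) and Dll4 (3009) Gm14207 (127). All columns matched a library, and 0 were left over. Rows naming no gene were absent.

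In R 4.3.3 with edgeR 4.0.16, filterByExpr by group kept 18291 of 54532 genes. TMM factors and quasi-likelihood F-tests used all 18 libraries with 1 mean per group, two-sided, with Benjamini-Hochberg adjustment over all genes tested and a threshold of 0.05. CPM uses TMM-scaled library sizes; the SE is the log2 fold change over the square root of F. Log2 CPM has a prior count of 2. The common biological coefficient of variation was 0.264. Between libraries of 1 group, chi-square per degree of freedom was at least 14.5, so no pair repeats 1 library. The tests were checked on simulated counts.

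The 10 genes, the wider lists and the cell markers were chosen with earlier results of these data known. From the wider lists the text names any gene called by edgeR with all 18 libraries and the 2 of smallest p per direction and comparison. Genes called only by another tool or with libraries left out are counted, and not all are named. The text also names the 6 genes most like Nrarp (mean of at least 1 CPM, proper symbol). Promoter windows are RefSeq's (GRCm38.p6). Alternatives were RLE size factors, the replicate block, no filter or a minimum of 1 CPM in 6 libraries, the 2 groups alone, DESeq2 1.42.0, limma-voom with quality weights and limma 3.58.1 on log2 FPKM plus 1 or 0.1, the endothelial level as a covariate, and leaving out libraries.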

Additional observations from a re-analysis of the deposited data

Results flagged for a closer look

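In a group of 6 libraries a value was picked out when its gap to the nearest other value was above 0.625 of the group's range (Dixon's 95% critical value), which chance meets in about 1 in 20 groups. Of 30 groups examined, 5 were picked out, where chance gives 1.5. In CRS 1, Dll4 stood at 20.5 CPM against 9.18 CPM in the next library (0.727 of the range), and Notch2 stood at 196 CPM against 121.6 CPM (0.740). In CRS 5, Hes1 stood at 129 CPM against 73.4 CPM in the next library (0.774). In the C10 group, Notch4 was 10.9 CPM in C10 2 against 7.36 CPM in the next library (0.642), and Jag1 was 49.3 CPM in C10 6 against 60.0 CPM in the next (0.645). CRS 1 and CRS 5 also stood apart on the first principal component. The cause was not tested.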

How the results depend on the processing

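Over 30 alternatives the log2 fold change of Nrarp ran from 0.59 to 0.96 in C10 against CRS and from -0.92 to -0.56 in CRS against CON. Nrarp was chosen on these libraries, so this is a description. The counts for the other 9 genes here leave it out, while those for the wider lists include it unless stated. Of the other 9 genes, in C10 against CRS, edgeR called 0, DESeq2 0 (1.91% of all genes) and limma-voom 2 (3%). In CRS against CON they were 0 with DESeq2 (0.979%) and 3 with limma-voom (5.14%). With 1 library left out edgeR called 0 to 2 there, with 2 without CRS 1 (5.39%). None of the 9 was called with the endothelial covariate. The wider lists had 0 with edgeR. In C10 against CRS they had 2 with DESeq2 (1.91% of all genes) and 6 with limma-voom (3%), or 1 and 5 without Nrarp. They had 2 with the covariate, Aph1c and Nrarp, and 0 to 1 with 1 library left out. In C10 against CON they had 1 with limma-voom (1.38%) and 1 with the covariate. In CRS against CON they had 2 with DESeq2 (0.979%) and 11 with limma-voom (5.14%), or 1 and 10 without Nrarp. They had 3 without CRS 1, CRS 2 and CRS 5, and 0 to 9 with 1 library left out. The 9 were without CRS 1 (5.39%), or 8 without Nrarp. For the wider-list counts printed without a share, no general rate is given to compare them with. Over all genes, calls higher and lower were 3 and 12 in C10 against CRS (2 to 227 and 4 to 321 over the alternatives), 8 and 21 in C10 against CON (1 to 120 and 2 to 198), and 1 and 0 in CRS against CON (0 to 398 and 0 to 596). The causes were not tested.

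Some log2 fold changes changed sign, and not all of these were near 0. With the endothelial covariate in C10 against CON, Dll4 moved from -0.30 to 0.37, Notch2 from -0.20 to 0.22 and Notch1 from -0.13 to 0.24. In C10 against CRS, Heyl was 0.040 with limma-voom, 0.10 without CRS 2 and CRS 5 and 0.20 without CRS 1, CRS 2 and CRS 5; Dll4 was 0.017 on log2 FPKM plus 0.1, 0.17 with the covariate and 0.10 without CRS 1, CRS 2 and CRS 5; Notch2 was -0.0055 without CRS 2 and CRS 5. In C10 against CON, Nrarp was -0.042 with limma-voom and -0.019 with the covariate, which also gave Hes1 -0.089, Notch1 0.24, Notch2 0.22, Notch3 0.023 and Dll4 0.37. In CRS against CON the covariate gave Notch2 0.0075, Notch4 0.089 and Dll4 0.20, and Dll4 was 0.045 without CRS 2 and CRS 5. With 1 library left out, the range in C10 against CRS was -0.22 to 0.31 for Dll4, -0.14 to 0.10 for Heyl and -0.013 to 0.074 for Jag1, and in C10 against CON -0.062 to 0.12 for Nrarp, -0.077 to 0.017 for Jag1 and -0.10 to 0.079 for Hey1. Correlations of Nrarp without the 2 farthest libraries were 0.092 with Hes1, 0.48 with Jag1, 0.17 with arterial endothelium, 0.14 with mural cells and 0.033 with basal epithelium; with Notch4 it was -0.15 without CRS 1, CRS 2 and CRS 5, and -0.059 on FPKM.

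The main fit used no pairing by replicate number. Same-numbered libraries correlated from -0.57 to 0.52, over 0.1 in 8 of 18 pairs. In C10 against CRS the values were 0.52, 0.23, 0.36, -0.23, 0.29 and 0.01 for numbers 1 to 6, which does not settle whether those groups are paired. With the replicate block 0 of the 9 genes other than Nrarp and 0 of the 60 were called in any comparison. In C10 against CON 2 of all genes were called higher and 10 lower. Nrarp had 2014 counts in all, the lowest total of the 10 genes, which limits the precision of its levels.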
